A study of Capra hircus with 6 samples.

Results

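The genes described here are the amino acid transporter families SLC1, SLC3, SLC6, SLC7, SLC36, SLC38 and SLC43, measured in peripheral blood mononuclear cells of goat kids (Capra hircus). Members were all genes of the count table whose symbol names one of these families followed by A and a number, which gave 54 of 24779 genes. There were 18 members of SLC6, 11 each of SLC7 and SLC38, 7 of SLC1, 3 of SLC43 and 2 each of SLC3 and SLC36. The mononuclear cells of blood comprise lymphocytes together with monocytes and some dendritic cells. The samples came from kids given doe's milk (control, libraries D1, D2 and D3) or replacer milk (test, libraries R1, R2 and R3), numbered as in the labels, which call the libraries of a group biological replicates. No breed, age or sex of the kids is used here. The design asks which genes differed in expression between the feeds.

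These transporters carry amino acids and a few related compounds across the plasma membrane and the membranes of lysosomes and other organelles. Several SLC7 proteins are light chains that reach the cell surface only when bound to a heavy chain of the SLC3 family. Many SLC1, SLC6 and SLC38 members are driven by the sodium gradient. Activated lymphocytes are known to raise leucine and glutamine uptake, and lysosomal members report amino acid supply to the growth kinase complex mTORC1. The SLC6 family also holds transporters of neurotransmitters, creatine and taurine, and SLC43A3 carries purine nucleobases, so not every member moves amino acids.

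The counts in D1, D2 and R1 followed transcripts, and these 3 are called transcript libraries. In D3, R2 and R3 they followed gene span, introns included, and these 3 are called span-proportional and shown apart. Across all genes, counts and span had a Spearman correlation of 0.893 to 0.896 in the span-proportional libraries and of 0.374 to 0.387 in the transcript libraries. Totals ran from 25023210 to 57204363 counts per library. T cell, B cell and monocyte markers were high in the transcript libraries. There the summed level of 10 T cell markers was 1490 to 1852 CPM (counts scaled by the library total). That of 11 B cell markers was 2601 to 3033 CPM and that of 9 monocyte markers 687 to 843 CPM. In the span-proportional libraries these sums were 303 to 349, 492 to 534 and 198 to 341 CPM. The sum of 8 dendritic cell markers went the other way, at 90.1 to 163 CPM in the transcript libraries and 273 to 425 CPM in the span-proportional ones.

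The transporter genes showed the same split. Over the 54 members, the correlation with span was 0.78 in D3, 0.74 in R2 and 0.73 in R3, against −0.15 in D1, −0.072 in D2 and −0.15 in R1, a description across genes and not over replicates. All 3 transcript libraries lay above all 3 span-proportional ones for 6 members and below them for 40. Over the 23612 genes with any count these shares were 23.7% and 57.9%. Transporters known from brain, kidney and gut were counted beside those of blood cells in the span-proportional libraries, so the levels in the transcript libraries are the ones described as expression.

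**Figure D1:**
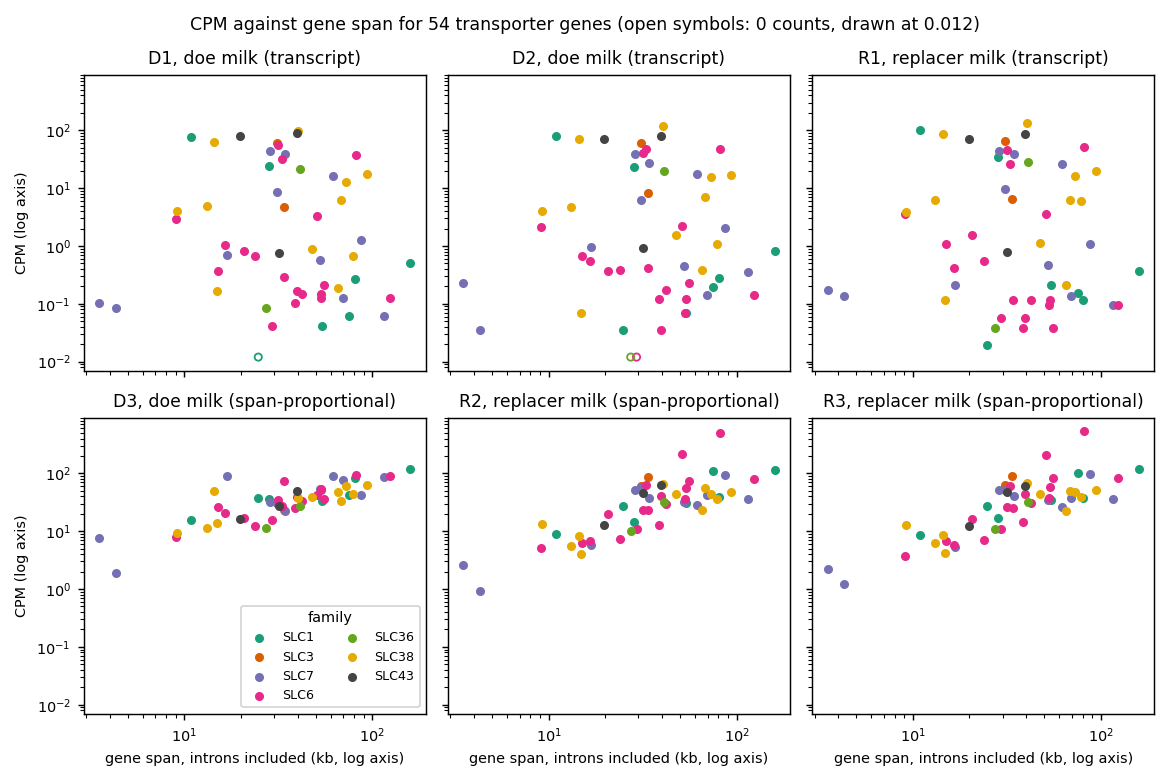
CPM (log axis) of the 54 transporter genes against gene span in kb (log axis), 1 panel per library, coloured by family, with open symbols for 0 counts. The points follow span in the lower panels (Spearman correlation 0.73 to 0.78) and do not in the upper, transcript panels (−0.15 to −0.072).

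In the transcript libraries 26 members averaged at least 1 CPM, among them 9 of the 11 SLC38 genes, both SLC3 genes, 2 of 3 SLC43 genes, 5 of 11 SLC7 genes, 5 of 18 SLC6 genes, 2 of 7 SLC1 genes and 1 of 2 SLC36 genes. SLC38A4 reached that mean through R1 alone. The 6 members above every span-proportional library were SLC1A5, SLC38A2, SLC38A10, SLC43A2, SLC43A3 and SLC6A9. For SLC1A5 the mean of the transcript libraries was 7.81 times that of the span-proportional ones, for SLC43A3 5.31 times and for SLC38A2 3.27 times. Of the other expressed members, 8 overlapped the span-proportional libraries, among them SLC3A2, SLC7A5 and SLC7A7, and 12 lay below them. SLC7A5 was at 31.4 CPM in D3, 51.1 CPM in R2 and 51.5 CPM in R3, and SLC3A2 at 31.1, 61.7 and 62.5 CPM. CPM are not corrected for transcript length, which the tables used here do not give, so no order of levels between genes is drawn from them.

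**Figure D2:**
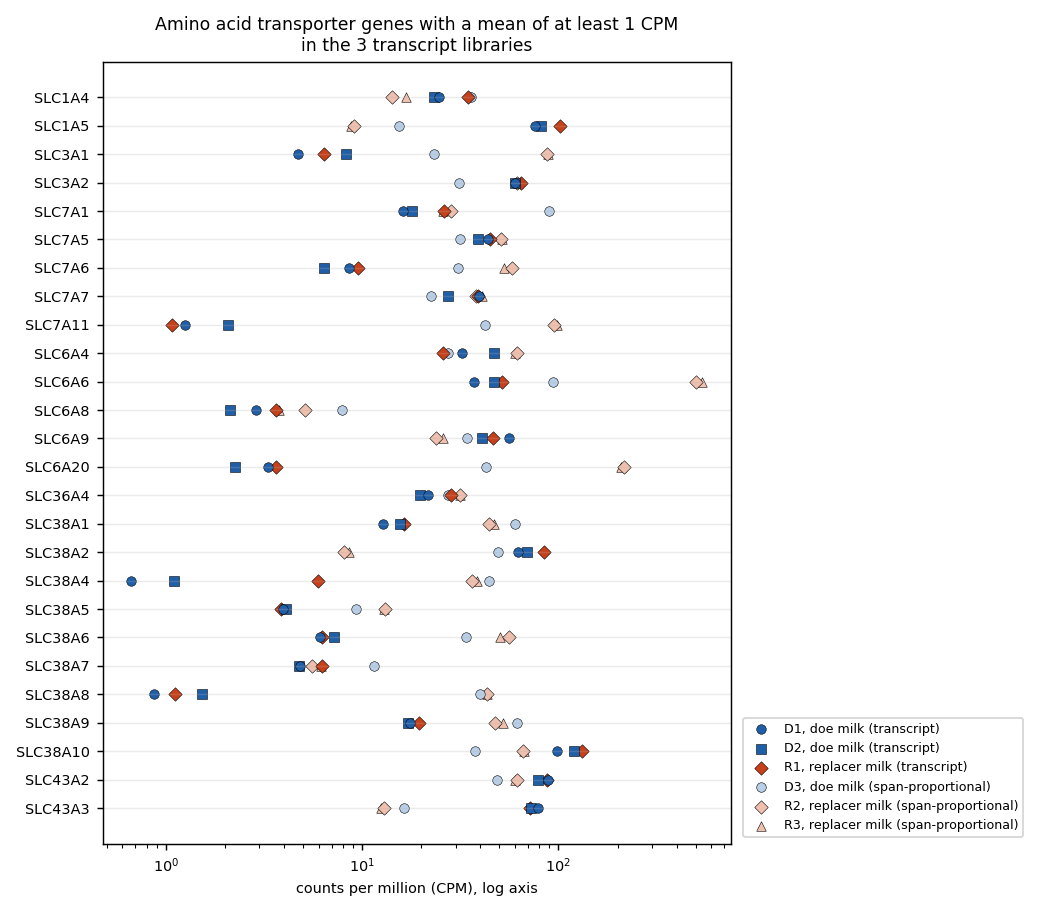
CPM (log axis) in each of the 6 libraries for the 26 transporter genes that averaged at least 1 CPM in the transcript libraries; dark symbols are transcript libraries, pale symbols span-proportional ones. Dark symbols lie close together for most genes, while SLC38A4 has R1 at 5.94 CPM, apart from 0.666 and 1.10 CPM in doe milk.

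Feeds were compared in the transcript libraries as D1 and D2 against R1. The replacer-milk side was a single library, assumed to vary like the doe-milk pair, so the test rests on the spread between D1 and D2 and what is shared between genes. In bulk samples, fewer cells of a type and less RNA per cell cannot be told apart. None of the members passed in edgeR's quasi-likelihood test with Benjamini-Hochberg adjustment over the 17356 genes tested. Of all genes, 3 passed (0.0173%). At an unadjusted p below 0.05 there were 3 members in edgeR, where 5.35% of all genes were, with 2 in limma voom (5.13% of all genes) and 2 in DESeq2 (4.46%). After adjustment limma voom called 0 members and 0% of all genes. DESeq2 called 1 member, SLC38A4, and 0.965% of the 15337 genes to which it gave an adjusted p. Of the 54 members, 41 passed the filter on low counts, and the other 13 were too low in these libraries to be tested. High enough counts in a single library, of either feed, were enough to pass this filter. Fold changes below are log2 values of replacer milk minus doe milk after TMM scaling, which placed the median of all genes at −0.0057. With library totals alone that median was 0.11.

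Over the 41 members tested, the fitted change was positive for 19 and negative for 22, with a median of −0.019. After TMM scaling, R1 lay above both doe-milk libraries for 16 of them (39.0%) and below both for 14 (34.1%), where 34.4% and 33.2% of all genes tested did so. These shares are near the background. Among the 26 members that averaged at least 1 CPM, SLC38A4 included, the change was positive for 16 and negative for 10. With library totals alone, which moved the median of all genes to 0.11, it was positive for 18 and negative for 8. The share of positive changes over all genes was not computed. Apart from SLC38A4, SLC6A4 and SLC7A11, the fitted changes of these 26 members lay between −0.23 and 0.50.

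Cell markers were read in the same comparison, and 0 members of 10 marker lists passed. The median log2 fold change was 0.10 for T cell, 0.22 for B cell and −0.18 for monocyte markers. It was −0.21 for cytotoxic and −0.68 for dendritic cell markers, and −0.24 for cycling and −0.37 for plasma cell genes. Before TMM scaling, the summed CPM was highest in R1 for T cell (1753 and 1490 against 1852) and B cell markers (2712 and 2601 against 3033). The same held for monocyte (687 and 736 against 843) and dendritic cell markers (153 and 90.1 against 163). The sum was lowest in R1 for cycling and plasma cell genes, and for neutrophil (866 and 477 against 326) and erythroid markers (1643 and 1819 against 635). For cytotoxic and platelet markers R1 lay between D1 and D2. Of the 8 dendritic cell markers tested, 6 had a negative fitted change. IRF8, the dendritic cell marker with the smallest p, had a positive change of 0.89. Of the dendritic cell sums, IRF8 alone gave 68.2 and 65.5 against 134 CPM. After TMM scaling, R1 lay above both doe-milk libraries for IRF8 only, and below both for 3 of the 8. For cells that a mononuclear preparation can carry along, the medians were −0.69 (neutrophil), −0.45 (erythroid) and −0.36 (platelet). Their part in the transporter values was not tested.

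**Figure D3:**
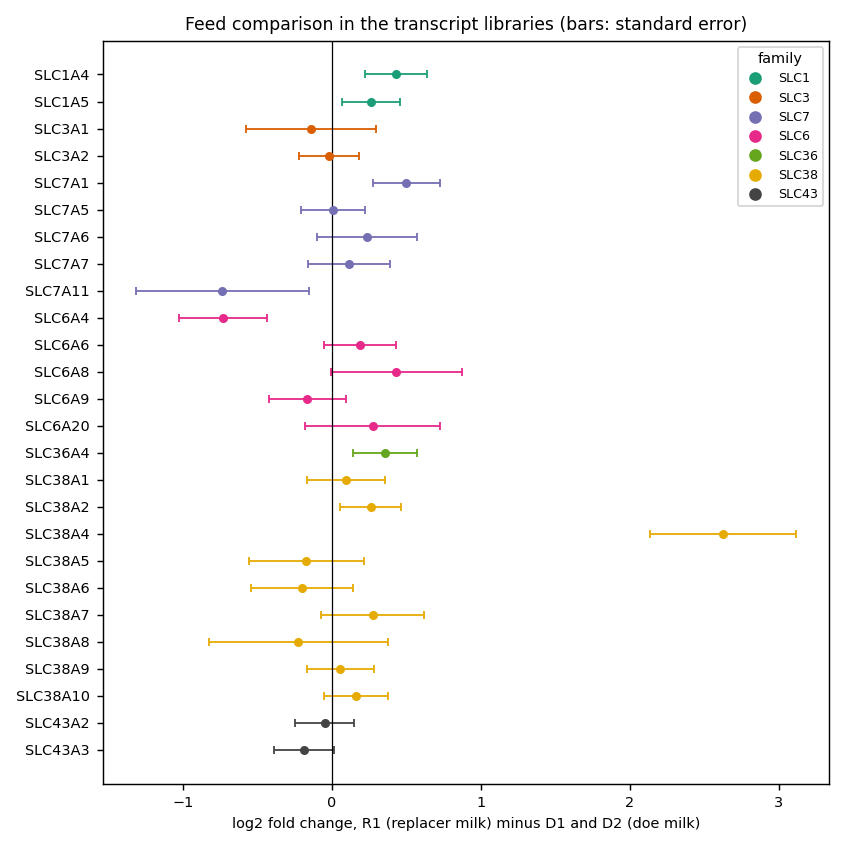
Fitted log2 fold change (R1 minus D1 and D2) with its standard error for the same 26 genes, coloured by family. Most lie near 0, SLC38A4 stands at 2.63, SLC6A4 and SLC7A11 stand near −0.73, and none passed the adjusted test.

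Of the heterodimeric transporters, both heavy chains and the light chains SLC7A5, SLC7A6, SLC7A7 and SLC7A11 averaged at least 1 CPM. SLC3A2, the heavy chain 4F2hc (CD98) that also binds integrins, stood at 60.4 and 60.4 CPM in D1 and D2 and at 64.4 CPM in R1 (log2 fold change −0.019, SE 0.20). SLC7A5, the LAT1 light chain that imports leucine and other large neutral amino acids, stood at 43.6 and 38.8 against 44.7 CPM (0.0073, SE 0.22). For both genes the 3 libraries lay within a narrow range, and the change was smaller than its standard error. R1 had the highest CPM for both, and no longer after TMM scaling. SLC7A7, the y+LAT1 light chain that exports arginine and lysine, was at 39.2 and 27.2 against 38.8 CPM, so that replacer milk lay between the doe-milk libraries. SLC7A6, the related y+LAT2 light chain, was at 8.57 and 6.36 against 9.48 CPM.

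SLC7A11, the cystine-glutamate exchanger xCT that feeds glutathione synthesis, was at 1.25 and 2.08 against 1.08 CPM. Its fitted change was −0.74 (SE 0.58, edgeR adjusted p = 0.979), resting on 60, 119 and 56 counts, and the libraries were all near 1 to 2 CPM. The other light chains averaged under 1 CPM. SLC7A8 (LAT2) had at most 0.562 CPM, and SLC7A10, the small neutral amino acid exchanger Asc-1, had 0.707 and 0.944 against 0.212 CPM. SLC7A10 rested on 34, 54 and 11 counts and had an unadjusted p of 0.0269 and an edgeR adjusted p of 0.845. SLC3A1, the heavy chain known from kidney and gut, was detected at 4.74 and 8.30 against 6.40 CPM, with replacer milk between the doe-milk libraries.

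Of the SLC7 members other than the light chains, SLC7A1 alone averaged at least 1 CPM. SLC7A1, the arginine and lysine importer CAT1, stood at 16.1 and 17.9 against 26.0 CPM (fitted change 0.50, SE 0.22, edgeR adjusted p = 0.957). R1 was above D1 and D2 without passing the test. SLC7A2, the form known from liver and activated macrophages, had at most 0.140 CPM, and SLC7A3, SLC7A4 and SLC7A14 had at most 0.135, 0.227 and 0.350 CPM.

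Of the SLC1 family, only the neutral amino acid exchangers exceeded 1 CPM. SLC1A5 (ASCT2), a main glutamine importer of dividing cells, stood at 76.1 and 81.2 against 102 CPM (0.26, SE 0.19, edgeR adjusted p = 0.979). SLC1A4 (ASCT1), which exchanges alanine, serine and cysteine, stood at 24.6 and 23.2 against 34.8 CPM (0.43, SE 0.21, edgeR adjusted p = 0.976). In both, R1 was the highest of the 3 and the doe-milk libraries lay close together, yet neither passed. The glutamate transporters of the family, SLC1A1, SLC1A2, SLC1A3, SLC1A6 and SLC1A7, had at most 0.192, 0.804, 0.280, 0.035 and 0.212 CPM. SLC1A6 had 0 counts in D1, which allows a level of up to 0.0624 CPM (3 counts, counting error only).

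The SLC38 family, sodium-coupled neutral amino acid transporters, had 9 of its 11 members at a mean of at least 1 CPM. SLC38A2 (SNAT2), the system A transporter that cells raise when amino acids are short, stood at 62.0 and 69.4 against 84.9 CPM (0.26, SE 0.20). SLC38A1 (SNAT1), a glutamine transporter, stood at 12.8 and 15.6 against 16.4 CPM (0.094, SE 0.26). R1 had the highest CPM for both, and neither passed. After TMM scaling R1 lay between D1 and D2 for SLC38A1. SLC38A9, the lysosomal arginine sensor that signals to mTORC1, varied little, at 17.5 and 17.1 against 19.4 CPM. SLC38A7, a lysosomal glutamine and asparagine transporter, was at 4.85 and 4.77 against 6.28 CPM.

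SLC38A10 stood at 98.2 and 120 against 132 CPM (0.16, SE 0.22). SLC38A5 (SNAT5), a system N transporter known in red cell precursors, was at 3.95 and 4.09 against 3.85 CPM, and SLC38A6 at 6.12 and 7.17 against 6.24 CPM. For each of these 3 genes the fitted change was smaller than its standard error. SLC38A8, a glutamine transporter of the eye in humans, was at 0.874 and 1.54 against 1.12 CPM. SLC38A3 (SNAT3), the system N transporter of liver and kidney, and SLC38A11 had at most 0.166 and 0.385 CPM.

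SLC38A4 (SNAT4), a system A transporter known mainly from liver and placenta, had the smallest p of the members. It was at 0.666 and 1.10 CPM in D1 and D2 and at 5.94 CPM in R1, from 32, 63 and 308 counts. Its replacer-milk value lay apart from both doe-milk values, which stayed near 1 CPM. The log2 fold change was 2.63 (SE 0.49, unadjusted p = 0.00167, edgeR adjusted p = 0.409). It passed with DESeq2 (adjusted p = 0.0173) and with no filter on low counts in edgeR (adjusted p = 0.0193), and not in the other fits that gave a test, where the adjusted p ran from 0.174 to 0.448. The fitted change was 2.31 without D1 and 3.04 without D2, values with no test. In the span-proportional libraries SLC38A4 was at 36.5 to 44.1 CPM.

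The SLC43 and SLC36 families are small. SLC43A2 (LAT4), a carrier of leucine, phenylalanine and methionine, stood at 88.7 and 79.1 against 87.5 CPM (−0.050, SE 0.20). SLC43A3, the purine nucleobase transporter, stood at 78.4 and 72.1 against 71.3 CPM (−0.19, SE 0.20). SLC43A1 (LAT3), its paralog of liver and muscle, had at most 0.909 CPM. SLC36A4, a proline and tryptophan transporter, stood at 21.7 and 19.6 against 28.5 CPM (0.35, SE 0.22, edgeR adjusted p = 0.979). Its relative SLC36A2, a proton-coupled glycine and proline transporter, had at most 0.0832 CPM and 0 counts in D2, which allows up to 0.0524 CPM.

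Of the SLC6 family, 5 of 18 members averaged at least 1 CPM. SLC6A6, the taurine transporter, stood at 37.0 and 47.2 against 51.7 CPM (0.19, SE 0.24), and SLC6A9, the glycine transporter GlyT1, at 55.8 and 41.0 against 46.5 CPM (−0.17, SE 0.26). For SLC6A9 replacer milk lay between the doe-milk libraries. SLC6A8, the creatine transporter, was at 2.87 and 2.13 against 3.64 CPM, and SLC6A20, a proline transporter of gut and kidney, at 3.31 and 2.26 against 3.62 CPM.

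SLC6A4, the serotonin transporter by which platelets take up serotonin, was lowest in R1, at 32.3 CPM in D1 and 46.7 CPM in D2 against 25.7 CPM. The doe-milk libraries differed from each other by more than the lower of them differed from replacer milk. The fitted change was −0.73 (SE 0.30, unadjusted p = 0.0488, edgeR adjusted p = 0.930). Most platelet markers had the same sign. Of the 12 platelet markers tested, 11 had a negative fitted change (median −0.36), none passed, and 7 were lower in R1 than in D1 and D2, as were 33.2% of all genes tested. The chemokine gene PPBP stood at 41.3 CPM in D1, 51.0 CPM in D2 and 28.3 CPM in R1, and the receptor gene TREML1 at 30.1, 26.9 and 14.9 CPM. The summed level of the 12 markers did not follow this order, at 726 and 1067 against 865 CPM, and none of them was at 0. The part of platelet RNA in the SLC6A4 values was not tested.

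The other 13 SLC6 genes are mostly transporters of nerve terminals and epithelia, and each averaged under 1 CPM. The GABA transporters SLC6A11 and SLC6A13 and the transporters of noradrenaline (SLC6A2), dopamine (SLC6A3) and glycine in spinal cord (SLC6A5) had at most 0.140, 0.122, 0.175, 0.420 and 0.146 CPM. The amino acid transporters of gut and kidney epithelium, SLC6A14, SLC6A18 and SLC6A19, reached 0.0578, 1.10 and 1.06 CPM in their highest library, and SLC6A7, the brain proline transporter, reached 1.54 CPM. SLC6A15, SLC6A16 and SLC6A17 had at most 0.125, 0.666 and 0.227 CPM. SLC6A14 had 0 counts in D2. Of the 28 members under a mean of 1 CPM, all lay below every span-proportional library, and their mean in the transcript libraries was 0.059% to 6.27% of that in the span-proportional ones, with a median of 0.474%.

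Genes that work with these transporters were read from lists of related functions, in the same comparison. Of 27 tested genes of the amino acid response, in which the transcription factor ATF4 raises transporters and synthesis enzymes when amino acids are short, none passed in either direction. Their median was −0.23, with 10 positive and 17 negative. ATF4 itself was at 790 and 844 against 619 CPM (−0.51, SE 0.19, edgeR adjusted p = 0.906). PPP1R15A, a phosphatase subunit that ends the response, was at 338 and 315 against 251 CPM, and EIF4EBP1, a repressor of translation that mTORC1 switches off, at 96.1 and 83.8 against 66.9 CPM. The pseudokinase gene TRIB3 had the opposite sign, with 10.3 CPM in D1, 8.81 CPM in D2 and 15.4 CPM in R1.

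None of 41 genes of amino acid sensing and mTORC1 passed, a list that holds the sensors, the complex itself and its direct targets (median 0.086, 23 positive and 18 negative). Those with the smallest p beside EIF4EBP1 were GATSL2, the older symbol of the arginine sensor relative CASTOR2, at 13.0 and 12.3 against 22.9 CPM, LAMTOR5, a lysosomal scaffold subunit, at 67.7 and 68.2 against 52.95 CPM, and TSC1, an mTORC1 inhibitor, at 19.2 and 22.3 against 31.9 CPM. None of 20 aminoacyl-tRNA synthetases passed (median −0.0046, 10 positive and 10 negative), and their fitted changes stayed between −0.33 and 0.23. WARS, the tryptophan enzyme, was at 390 and 419 against 347 CPM.

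Of 34 tested enzymes of amino acid metabolism none passed (median −0.031, 16 positive and 18 negative). IL4I1, a secreted oxidase of phenylalanine and tryptophan, was at 9.55 and 5.89 against 21.9 CPM (1.40, SE 0.34, edgeR adjusted p = 0.662). KYNU, an enzyme of tryptophan breakdown, was at 28.6 and 20.3 against 51.4 CPM (0.96, SE 0.26, edgeR adjusted p = 0.695). ARG2, the mitochondrial arginase, stood at 32.4 and 24.8 against 17.0 CPM, and ODC1, the first enzyme of polyamine synthesis, stood at 139 and 137 against 103 CPM. These 4 genes were picked for the smallest p of the list in this same comparison, and none passed. That choice favours genes in which R1 lay outside the doe-milk pair, as it did in each. R1 was higher for IL4I1 and KYNU and lower for ARG2 and ODC1. After TMM scaling, R1 lay above both doe-milk libraries for 9 of the 34 enzymes and below both for 12. Of all genes tested, 34.4% lay above and 33.2% below. Of 15 tested carriers of amino acids and peptides from other families none passed (median 0.083). SLC15A4, the lysosomal histidine and peptide transporter that supports nucleic acid sensing, was at 63.2 and 65.7 against 93.5 CPM.

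**Figure D4:**
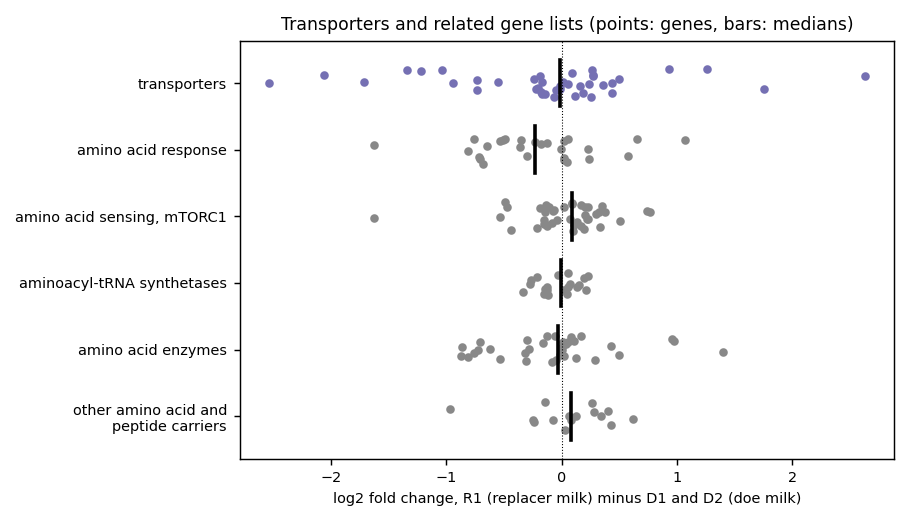
Fitted log2 fold change (R1 minus D1 and D2) of the 41 transporters tested and of 5 related gene lists, with 1 point per gene, spread vertically only for legibility, and bars for medians. The medians run from −0.23 for the amino acid response to 0.086 for amino acid sensing and mTORC1, with the transporters at −0.019.

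Over all 6 libraries as labelled, 3 doe-milk against 3 replacer-milk, none of the 54 members passed (smallest edgeR adjusted p = 0.987), and 0% of the 21431 genes tested did. At an unadjusted p below 0.05 there were 0 members in edgeR, where 0.574% of all genes were, with 0 in limma voom (0.182% of all genes) and 3 in DESeq2 (2.86% of the 15783 genes to which it gave a p). Of the span-proportional libraries 2 are replacer-milk and 1 is doe-milk, so library kind and feed overlap in this comparison. SLC6A6 was the only member whose groups did not overlap after scaling, 1 of 54, where 1.89% of all genes tested lay higher in all replacer-milk libraries and 1.08% lower. Its CPM were 37.0, 47.2 and 94.2 in doe milk and 51.7, 503 and 539 in replacer milk (fitted change 2.10, SE 1.03, edgeR adjusted p = 0.987). The separation came with the scaling, since before it R1 lay below D3.

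Within the span-proportional libraries, members at the median gene's count per kb would stand at 1 relative to it. The median gene was taken from protein-coding genes, with short spans left out. SLC7A3, SLC7A4, SLC6A8 and SLC38A5 have shorter spans than the genes of that set. The members' median was 1.17 in D3 and 1.03 and 1.06 in R2 and R3. Both replacer-milk libraries lay over 2-fold above D3 for 7 members, where 12.5% of all genes did. These were SLC1A1, SLC3A1, SLC6A4, SLC6A6, SLC6A17, SLC6A20 and SLC7A11. SLC6A20 was at 42.5 CPM in D3 and at 217 and 207 CPM in R2 and R3, which is 1.13, 6.34 and 6.03 times the median gene per kb. SLC6A6 was at 1.56, 9.16 and 9.78 times it.

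D3 lay over 2-fold above both replacer-milk libraries for 12 members, where 24.9% of all genes did. SLC7A10 was at 88.4 CPM against 5.86 and 5.36 CPM, and SLC38A2 at 49.5 against 8.11 and 8.54 CPM. SLC7A1 was at 89.1 against 28.4 and 25.8 CPM. The other 9 were SLC6A3, SLC1A3, SLC1A4, SLC6A18, SLC6A19, SLC7A4, SLC7A14, SLC38A3 and SLC38A11. With 1 library against a closely similar pair, these values were not tested.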

How the data were processed

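Per the labels' protocols, RNA was isolated with TRIzol before library preparation with NEBNext Ultra II reagents. The authors deposited 1 table of raw counts per gene. The submitters' processing notes name fastp 0.22.0, STAR 2.7.10a and featureCounts 2.0.0, and the sources used here do not give their settings, the genome build, the annotation or the strand. Reads of overlapping antisense genes cannot be separated on that basis. Among counts of 2 to 9, between 61.2% and 66.9% per library were even, so low counts may not be single independent reads.

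Gene spans came from the RefSeq table of assembly ARS1.2, which held 23022 genes of the count table (92.9%) and all 54 members. Its coordinates are not printed, because the authors' build is not known. Older symbols were matched by hand for the synthetases and a few sensors. CPM are counts scaled by the library total. Libraries with a span correlation over 0.6 were called span-proportional. The tests used edgeR 4.0.16 in R 4.3.3 (filterByExpr, TMM, robust quasi-likelihood test, two-sided, Benjamini-Hochberg adjusted p below 0.05), with a standard error obtained as the log2 fold change over the root of F. The fits were tested on simulated data. The alternatives were RLE scaling or totals alone, a filter of at least 1 CPM in each library or none, DESeq2 1.42.0, voom in limma 3.58.1, dispersions not robust, all 6 libraries in 1 fit with a group per feed and kind, the replicate number as a block, and the libraries left out in turn.

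Members with a mean of at least 1 CPM in the transcript libraries were given in each library and the others by their highest value, except 1 that is counted but not reported here; from each related list up to 4 genes with the smallest p could be named. The members and lists were chosen with earlier results of these data known. Marker lists of T, B, cytotoxic, dendritic, monocyte, neutrophil, erythroid, platelet, plasma and cycling cells were read alongside. Figures were drawn with matplotlib 3.10.9.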

Additional observations from a re-analysis of the deposited data

How the results depend on the processing

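In D1 and D2 against R1, the number of genes called was 3 in edgeR and depended on the setting, at 5 with RLE scaling, 90 with no filter, 148 with DESeq2, 1 with dispersions not robust, and 0 with limma voom or at least 1 CPM in every library; the cause was not tested. The number of members called was 0 and became 1 with no filter and 1 with DESeq2, SLC38A4 in both. The median log2 fold change of the members tested was −0.019, and moved to 0.092 with library totals, −0.072 with no filter, 0.092 with at least 1 CPM and −0.080 with all 6 libraries in 1 fit, where the last 3 test other numbers of members. Leaving out 1 doe-milk library gave −0.0043 to 0.018. Among the 26 named members, signs turned with another setting for SLC3A2 (0.092) and SLC43A2 (0.061) with library totals and SLC7A5 (−0.0038) with at least 1 CPM, all without passing. They also turned without D1 for SLC38A1 (−0.046), SLC43A2 (0.028) and SLC6A9 (0.064), and without D2 for SLC3A1 (0.32), SLC38A8 (0.24), SLC7A5 (−0.078) and SLC7A7 (−0.13), values with no test. SLC38A4 and SLC38A8 gave no value at 1 CPM in every library.

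Over all 6 libraries 0 members were called under each alternative run, and 0 genes except 1 with DESeq2. The replicate block also called 0 genes and 0 members. Deviations from the group mean in same-numbered libraries had correlations of 0.89, −0.89 and 0.93. Library kind is the same in D1 and R1 and in D3 and R3, and differs between D2 and R2. These correlations therefore cannot show whether the numbers mark pairs, and the numbers were not taken as pairs. No paired analysis was possible for the 3 transcript libraries because the groups share 1 number. The single replacer-milk library limits every feed difference given here, and members under 1 CPM rest on few counts.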
